A study of Homo sapiens with 8 samples.

Results

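The data described here are the statistical interaction of 2 treatments in RKO cells, a human colon carcinoma line: the response to 5-Aza-2′-deoxycytidine (5-Aza-CdR) with SRCAP siRNA minus the response with non-target (NC) siRNA. It was computed for every probe from all 8 arrays of the series, which is the whole series. The 4 groups of 2 arrays each were SRCAP siRNA with 5-Aza-CdR, SRCAP siRNA with PBS, NC siRNA with 5-Aza-CdR and NC siRNA with PBS. Cells had 100 nM of an siRNA pool for 24 h and then 1 µM of the drug or PBS. The sources differ on timing: the labels put drug or PBS at 72 h, and the study's methods have cells exposed for 24 h and RNA taken 72 h after treatment. The values do not settle which holds. Replicate 1 of every group lay on 1 slide and replicate 2 on the other, so each slide held a complete design of 4 arrays. Whether the replicates of a group were grown separately is not stated, and the spread behind every p-value here may then be technical. The signal of a culture is a mean over its cells, so fewer cells expressing a gene and less RNA per cell cannot be told apart.

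5-Aza-CdR is a cytosine analogue that is built into DNA during replication and traps the DNA methyltransferases, so that methylation is lost as cells divide. Genes silenced by promoter methylation can then be transcribed, and among the best known are the cancer-testis genes, which are normally read in male germ cells and many of which lie in multicopy families on the X chromosome. SRCAP is the ATPase of a remodelling complex that exchanges histone H2A in nucleosomes for the variant H2A.Z. The interaction asks whether the drug raised a gene as much when SRCAP was depleted. On the log2 scale used throughout, a negative value means a smaller rise with SRCAP siRNA than with NC siRNA, and a value of 0 the same rise with both.

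Of 48801 probes, 20328 were detected on at least 2 of the 8 arrays (detection p under 0.01) and were tested, and 11670 genes were represented by their brightest probe, of 18664 genes named on the array. Each array detected 17838 to 19767 probes, the most on SRCAP siRNA with 5-Aza-CdR replicate 2. Replicates correlated at r = 0.983 to 0.993 across probes. The SRCAP probe read 6.73 and 6.46 with SRCAP siRNA and 5-Aza-CdR, 6.58 and 6.58 with SRCAP siRNA and PBS, 6.83 and 7.16 with NC siRNA and 5-Aza-CdR, and 7.19 and 7.07 with NC siRNA and PBS. All 4 SRCAP siRNA arrays were below all 4 NC arrays, a modest separation that no single contrast called (SRCAP siRNA minus NC -0.40 ± 0.22 with 5-Aza-CdR, limma adjusted p = 0.458). Of 33 colon epithelial markers on the array 13 were detected on enough arrays to be tested, as were 20 of 38 fibroblast and contractile, 17 of 36 blood cell, 10 of 25 neuronal and 7 of 26 muscle markers.

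No probe passed the test of the interaction. In limma with Benjamini-Hochberg adjustment 0 of 20328 probes (0%) were called at an adjusted p under 0.05, the smallest adjusted p being 0.574. A fit that took the slide as a block also called 0, its smallest adjusted p being 0.0593. At an unadjusted p under 0.05 there were 499 probes, 303 with a value below 0 (1.49% of those tested) and 196 above 0 (0.964%), and 1073 with the slide block. The median SE of an interaction was 0.364. All interactions below are therefore values, and none is a called change.

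Although no single probe was called, the interaction was not spread evenly. Probes raised by the drug had values mostly below 0, on both slides. The drug effect averaged over both siRNAs, a contrast independent of the interaction by design, called 689 probes higher (3.39%) and 60 lower (0.295%). Over the 689 raised probes the median interaction was -0.32, against 0.04 over all probes, and it was -0.37 on slide 1 and -0.38 on slide 2. On both slides 377 of the 689 (54.7%) were below 0 and 132 (19.2%) above 0, where all probes gave 24.6% below 0 and 30% above 0 on both. The median drug effect of these probes was 1.33 with SRCAP siRNA and 1.71 with NC siRNA. The 60 lowered probes had a median interaction of 0.02, with 20 below and 21 above 0 on both slides. No test was made of these medians, since probes on 1 array are not replicates. The median depended on which probes and arrays entered: it was 0.04 over the 134 raised probes detected on all 8 arrays, -0.12 in the authors' normalized table and -0.19 without background correction, and it was -0.52 without NC 5-Aza-CdR replicate 1 and -0.49 without SRCAP siRNA 5-Aza-CdR replicate 2. Across probes the values of both slides correlated at r = 0.199 over all 20328 and at r = 0.702 over the 689 raised, and all probes of a slide share its 4 arrays.

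**Figure D1:**
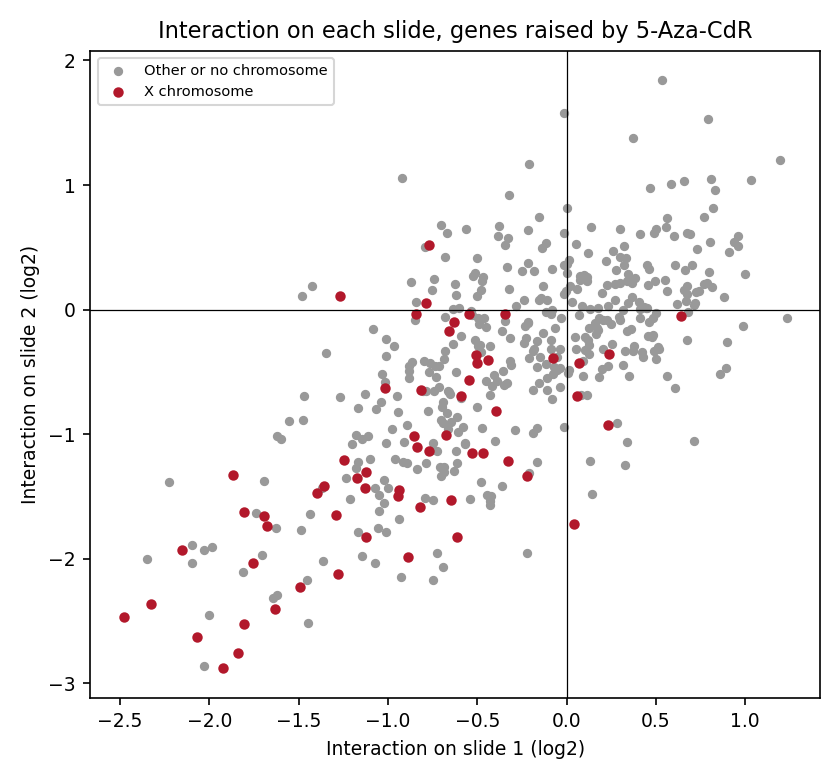
Interaction (log2) on slide 1 (x axis) against slide 2 (y axis) for the 468 genes raised on average by 5-Aza-CdR, 1 point per gene, with the 60 genes on the X chromosome in red and the others in grey. The grey points include GAGE4, GAGE7 and MICALCL, which had no chromosome in the annotation. The points lie mostly in the lower left, where both slides are below 0 (248 genes). None of the genes in red lies above 0 on both.

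The value lay further below 0 among probes that the drug raised more. The median interaction was -0.04 for the 526 probes with an average drug effect of 0.5 to 1, -0.35 for the 312 from 1 to 2, -0.51 for the 118 from 2 to 3, -0.50 for the 82 from 3 to 5 and -0.79 for the 31 above 5. Of those 31 probes, 27 were below 0 on both slides and 1 was above. In that bin the median drug effect was 5.74 with SRCAP siRNA and 6.50 with NC siRNA, and the median level after the drug with SRCAP siRNA was 42.9% of that with NC siRNA. The 18741 probes within 0.5 of no drug effect had a median of 0.05.

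**Figure D2:**
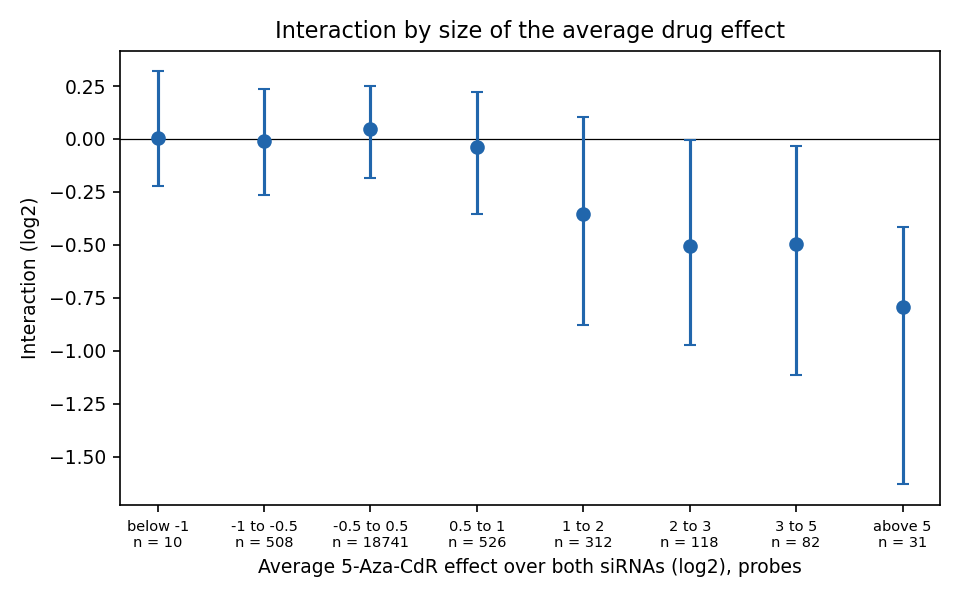
Interaction (log2, y axis) by the average 5-Aza-CdR effect over both siRNAs (log2, x axis bins with the number of probes), with points at the median and bars from the first to the third quartile. The medians lie within 0.05 of 0 up to an average effect of 1 and between -0.35 and -0.79 above it.

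The raised probes also differed by their detection under PBS. The 426 that were detected on no PBS array had a median interaction of -0.60, with 288 below and 53 above 0 on both slides. The 185 detected on all 4 PBS arrays had a median of 0.04, with 53 below and 64 above. Median drug effects differed as well, 1.42 with SRCAP siRNA and 1.97 with NC siRNA for the 426, against 1.27 and 1.21 for the 185. Detection and the size of the rise were not separated. For an undetected probe the PBS level is background, so a fitted drug effect is a difference from background. Folds are given as lower bounds set at the detection limit, and only the difference between the 5-Aza-CdR arrays is measured above background. Differences between PBS arrays at background still enter the interaction. LOX stood at -0.30 with an siRNA difference of 0.01 after the drug, ADAP2 at -1.81 with -1.32 and VCX3B at -2.40 with -2.49. The filter on detection is not even between siRNAs: 79 probes were detected on both NC 5-Aza-CdR arrays and no other array, and 59 on both SRCAP siRNA 5-Aza-CdR arrays and no other. Of the raised probes, 46 were detected on both NC and neither SRCAP siRNA 5-Aza-CdR array (median -1.13, 46 below 0 on both slides). The reverse held for 8 raised probes (median 0.71, 0 below 0 on both slides). The part of such probes in the result was not tested. Among the 276 raised probes detected on all 4 5-Aza-CdR arrays and on no PBS array, the median was -0.42, with 172 below and 37 above 0 on both slides.

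The difference can also be read as the effect of SRCAP siRNA itself. Among the 689 raised probes the median of SRCAP siRNA minus NC siRNA was -0.44 after 5-Aza-CdR, a level of 73.9% of that with NC siRNA, and -0.03 under PBS. For the 426 of them detected on no PBS array the PBS level is background, so the PBS value cannot show an siRNA effect there. Their medians were -0.57 after 5-Aza-CdR and -0.01 under PBS. For the 185 detected on all PBS arrays the medians were nearly equal, -0.127 after 5-Aza-CdR and -0.125 under PBS. After 5-Aza-CdR limma called 59 probes lower with SRCAP siRNA (0.29%) and 3 higher (0.0148%), and 44 of the 59 and 1 of the 3 were raised probes. These calls are fragile: with the slide block 833 were lower and 299 higher, and without any 1 array the lower calls numbered 0 to 204, with 0 when NC 5-Aza-CdR replicate 2, either SRCAP siRNA 5-Aza-CdR array or either SRCAP siRNA PBS array was left out.

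**Figure D3:**
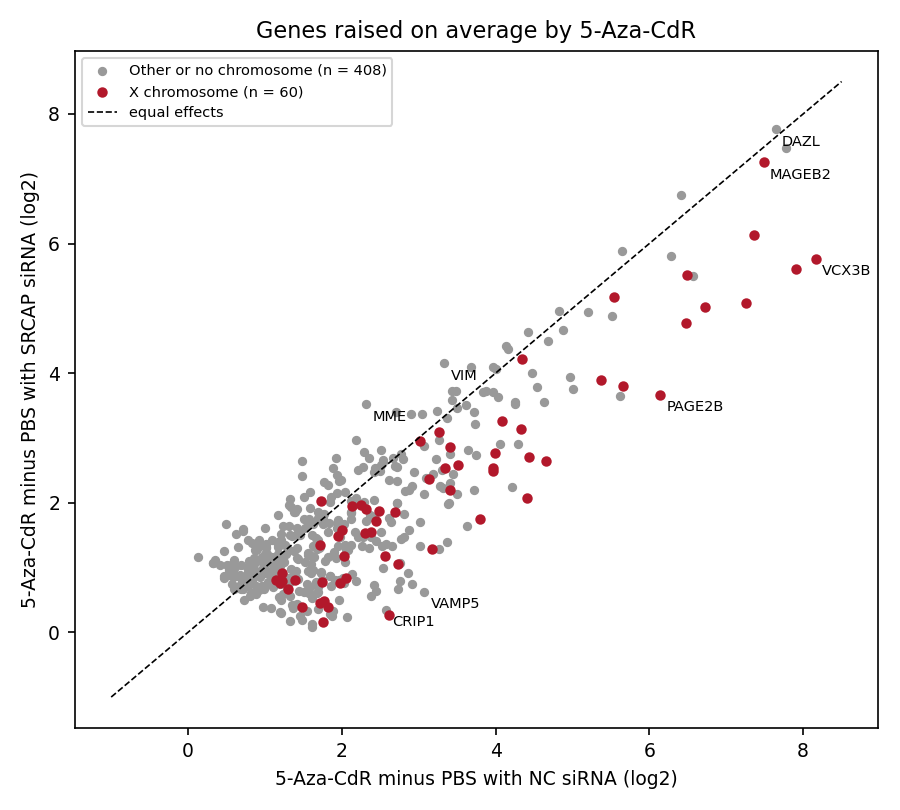
5-Aza-CdR minus PBS with SRCAP siRNA (log2, y axis) against the same with NC siRNA (log2, x axis) for the 468 genes raised on average, 1 point per gene, X-chromosome genes in red, with a dashed line where both effects are equal. VCX3B (5.76 and 8.17) and PAGE2B (3.67 and 6.14) lie under the line, DAZL (7.77 and 7.64) close to it and MME (3.52 and 2.32) above it.

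Cancer-testis genes of the X chromosome were among the genes with values farthest below 0. The VCX family, which is testis-specific, was represented by 5 genes (4 of them on X), all raised on average and all below 0 on both slides, with a median of -2.17. VCX3B read 10.18 and 10.60 with SRCAP siRNA and 5-Aza-CdR (slides 1 and 2), 4.51 and 4.75 with SRCAP siRNA and PBS, 12.35 and 13.42 with NC siRNA and 5-Aza-CdR, and 4.75 and 4.68 with NC siRNA and PBS. The drug arrays of both siRNAs did not overlap, and the PBS arrays did. The interaction of VCX3B was -2.40 ± 0.47 (unadjusted p = 0.000465, limma adjusted p = 0.574, or 0.0599 in the blocked fit). The drug raised VCX3B at least 25.9-fold with SRCAP siRNA and at least 151-fold with NC siRNA, and after the drug its level with SRCAP siRNA was 17.8% of that with NC siRNA (limma adjusted p = 0.0281). VCX stood at -2.30 and VCX3A at -2.17, while second probes gave -1.87 for VCX3B and -1.63 for VCX3A. All these genes are close copies whose probes may share targets.

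PAGE2B, a cancer-testis antigen of the PAGE family, was the raised gene farthest below 0. It read 8.0 and 8.95 with SRCAP siRNA and 5-Aza-CdR, 4.59 and 5.01 with SRCAP siRNA and PBS, 10.35 and 11 with NC siRNA and 5-Aza-CdR, and 4.47 and 4.59 with NC siRNA and PBS. Here too the drug arrays separated by siRNA and the PBS arrays were all near background. Its interaction was -2.48 ± 0.48 and nearly equal on slide 1 (-2.48) and slide 2 (-2.47). The rises were at least 6.85-fold with SRCAP siRNA and at least 32.6-fold with NC siRNA. The list of GAGE, PAGE and XAGE genes held 4 measured genes, all of them PAGE genes and all below 0 on both slides (median -2.01, or -0.17 over the genes that enter without the filter on detection). Both raised GAGE genes were outside that list and nearer 0, GAGE7 at -0.73 and GAGE4 at -1.06. GAGE4, named for the size of its drug effect, read 12.05 and 12.40 with SRCAP siRNA against 13.31 and 13.49 with NC siRNA after the drug, with an SE of 0.43 on its interaction.

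In the list of SSX, SPANX, CTAG and CT45 genes, which also held CT47A7, CT55 and FMR1NB, 17 of 19 measured genes were below 0 on both slides and 0 above (median -0.97), against 25.7% below and 30.2% above for all represented genes. CTAG2 had an interaction of -2.02 ± 0.48, CTAG1A of -1.89 ± 0.39, CT45A3 of -1.71 ± 0.45 and CT47A7 of -2.04 ± 0.34. CT47A7 read 6.14 and 6.53 with SRCAP siRNA and 8.39 and 8.78 with NC siRNA after the drug, with no overlap. A second CT47A7 probe gave -0.44, and a second CTAG1A probe -0.55. Of 12 measured MAGE genes, which encode antigens shown to T cells by many tumours, 9 were below 0 on both slides and 0 above (median -0.81). MAGEA4 stood at -1.44 ± 0.42 and MAGEC2 at -1.39 ± 0.31 (-0.66 from a second probe), but MAGEB2, the MAGE gene that the drug raised most, at -0.23 ± 0.35.

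Raised genes of the X chromosome were counted as a whole. Of 60 raised genes on X, 51 were below 0 on both slides and 0 above (median -0.96). Of 405 raised genes on other chromosomes 195 were below and 94 above (median -0.21). GAGE4, GAGE7 and MICALCL had no chromosome in the annotation and entered neither count. Several of the 60 are copies within families, such as the VCX genes. Probes of such copies may share targets, so the genes counted may not all be separate measurements. With detection required on all 4 5-Aza-CdR arrays, the medians were -0.84 for 45 X genes and -0.12 for 326 others. They were -0.46 for X genes and -0.06 for others in the authors' table. With detection on all 8 arrays they were -0.16 for X genes and 0.10 for others, and this X median rests on few genes. Of the 60 raised X genes only ARMCX2, CCNB3, GCNA, NXT2 and YY2 were detected on all 4 PBS arrays. The median of the raised genes on other chromosomes was -0.39 without NC 5-Aza-CdR replicate 1 and -0.34 without NC PBS replicate 2. The difference between X and other chromosomes was not tested. Of the X genes in the cancer-testis and germ cell lists 37 of 40 were below 0 on both slides (median -1.20), and of those in none of these lists 14 of 20 (median -0.77). The lists were not complete, since the unlisted genes held MAGEA9B (-0.94), a MAGE gene, and the testis variants H2AB1 and H2AB2. The median of -0.77 is therefore not that of X genes free of cancer-testis and germ cell genes. The unlisted genes also included TCEAL7 (-2.35), WAS (-1.60), BEX2 (-1.43) and PLAC1 (-1.26). TCEAL7 and PLAC1 were detected on both NC 5-Aza-CdR arrays and no other, so they passed the filter only through the group where they were high. WAS and BEX2 were detected on both NC 5-Aza-CdR arrays and on 1 SRCAP siRNA 5-Aza-CdR array. Outside X, the 16 listed genes had a median of -0.58 and the 389 unlisted a median of -0.18. The H2A variants of the testis that lie on X, H2AB1 and H2AB2, stood at -1.23 ± 0.50 and -1.70 ± 0.53.

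Several genes that the drug raised as strongly had smaller interactions, between 0.33 (HCLS1) and -0.47 (LRCH4). LOX, MAGEB2, TEX11 and LRCH4 were below 0 on both slides, ZNF274 was above, and DAZL and HCLS1 differed in sign between slides. DAZL, a germ cell RNA-binding protein, read 12.20 and 12.74 with SRCAP siRNA and 5-Aza-CdR, 4.69 and 4.71 with SRCAP siRNA and PBS, 12.49 and 12.03 with NC siRNA and 5-Aza-CdR, and 4.66 and 4.57 with NC siRNA and PBS. The drug arrays overlapped between siRNAs, and the interaction was 0.12 ± 0.36 (-0.33 on slide 1 and 0.58 on slide 2). A second DAZL probe gave -0.18. The value was negative when SRCAP siRNA 5-Aza-CdR replicate 2 or NC 5-Aza-CdR replicate 2 was left out. LOX, the lysyl oxidase that cross-links collagen, read 12.42 and 12.62 with SRCAP siRNA against 12.42 and 12.60 with NC siRNA after the drug, with an interaction of -0.30 ± 0.31. MAGEB2 read 11.70 and 11.90 with SRCAP siRNA against 11.77 and 12.40 with NC siRNA after the drug, and was detected on no PBS array. HCLS1, an actin-binding protein of blood cells, stood at 0.33 ± 0.35 (-0.02 in the authors' table), ZNF274, a zinc finger protein, at 0.24 ± 0.32, TEX11, a meiotic protein of the X chromosome, at -0.37 ± 0.30 and LRCH4 at -0.47 ± 0.39, with 0.48 from a second LRCH4 probe. The difference between these genes and the VCX genes was not tested.

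**Figure D4:**
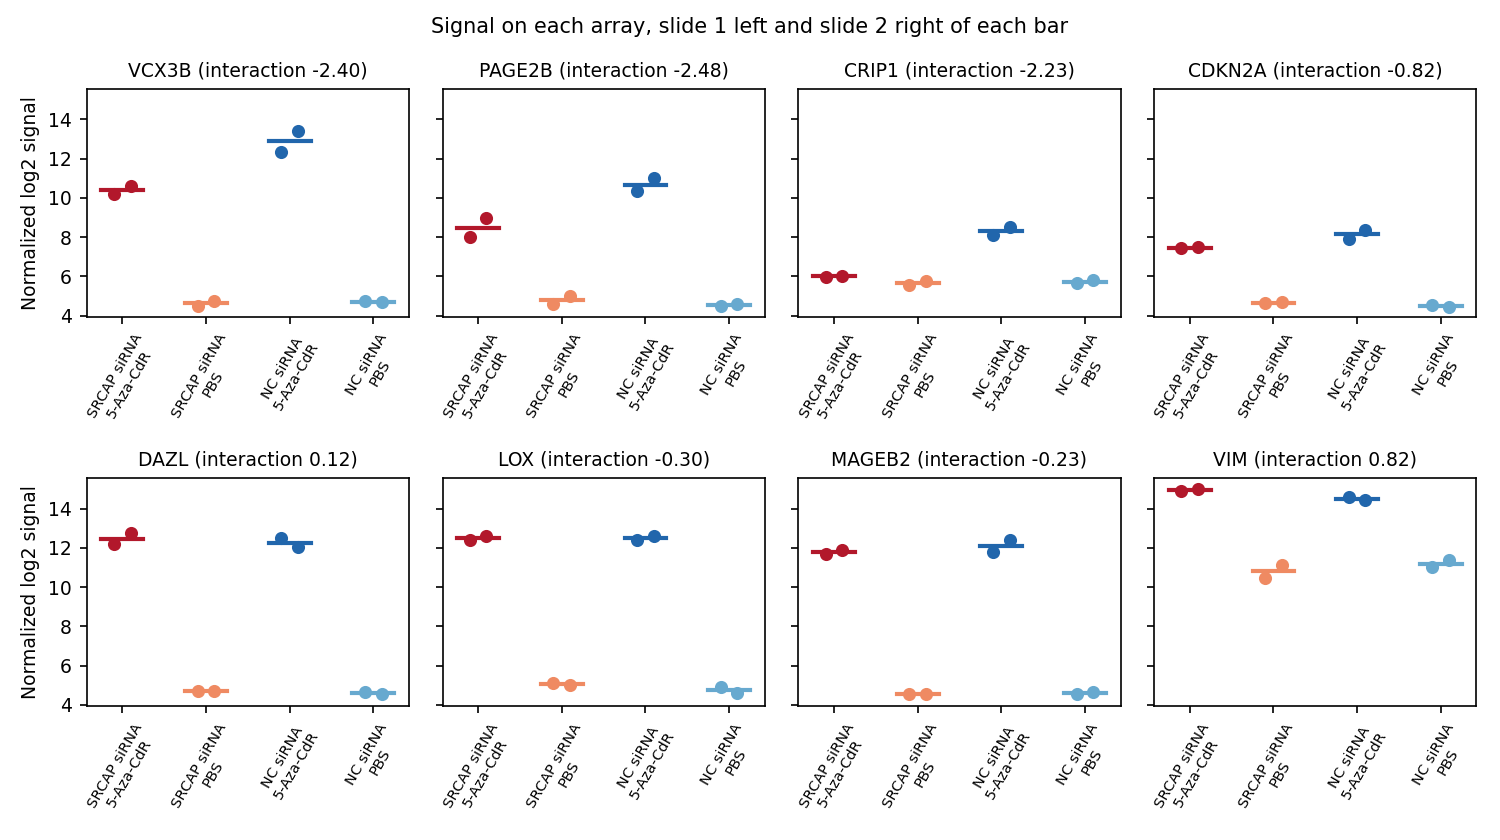
Normalized log2 signal (y axis) of 8 genes raised by 5-Aza-CdR, with points for the 2 arrays of each of the 4 groups (x axis) and a bar at their mean. For VCX3B, PAGE2B, CRIP1 and CDKN2A both SRCAP siRNA 5-Aza-CdR arrays lie below both NC 5-Aza-CdR arrays, for DAZL, LOX and MAGEB2 they overlap, and for VIM they lie above.

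The promoters of 3 genes with interactions under -2 and of 2 strongly raised genes, MAGEB2 (-0.23) and DAZL (0.12), are shown. They are given because the drug acts through CG dinucleotides, the sites of DNA methylation. Each is the 250 bases before the transcription start in RefSeq (GRCh38.p14), on the strand of the gene, with every CG in capitals. The windows are VCX at chrX:7842921-7843170 (plus strand), PAGE2B at chrX:55074780-55075029 (plus strand), CRIP1 at chr14:105486636-105486885 (plus strand), MAGEB2 at chrX:30215313-30215562 (plus strand) and DAZL at chr3:16605424-16605673 (minus strand, the one of 2 starts with more CG).
VCX: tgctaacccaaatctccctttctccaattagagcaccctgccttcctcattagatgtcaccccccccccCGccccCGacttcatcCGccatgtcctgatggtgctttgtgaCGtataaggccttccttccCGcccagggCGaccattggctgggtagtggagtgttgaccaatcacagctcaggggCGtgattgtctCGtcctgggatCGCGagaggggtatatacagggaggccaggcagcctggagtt
PAGE2B: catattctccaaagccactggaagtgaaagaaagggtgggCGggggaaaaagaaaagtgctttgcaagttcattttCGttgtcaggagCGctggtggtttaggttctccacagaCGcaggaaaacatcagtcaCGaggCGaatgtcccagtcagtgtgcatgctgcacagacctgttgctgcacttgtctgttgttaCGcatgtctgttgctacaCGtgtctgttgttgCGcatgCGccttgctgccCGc
CRIP1: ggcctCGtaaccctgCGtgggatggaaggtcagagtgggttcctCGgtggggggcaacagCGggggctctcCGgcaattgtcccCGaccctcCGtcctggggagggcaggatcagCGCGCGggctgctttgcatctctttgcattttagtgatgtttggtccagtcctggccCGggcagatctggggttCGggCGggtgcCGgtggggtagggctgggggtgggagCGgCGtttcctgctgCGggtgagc
MAGEB2: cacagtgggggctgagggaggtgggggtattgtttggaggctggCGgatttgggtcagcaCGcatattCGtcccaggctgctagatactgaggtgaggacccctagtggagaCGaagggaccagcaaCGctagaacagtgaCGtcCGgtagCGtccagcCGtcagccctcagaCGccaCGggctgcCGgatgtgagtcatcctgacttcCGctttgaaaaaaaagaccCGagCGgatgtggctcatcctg
DAZL: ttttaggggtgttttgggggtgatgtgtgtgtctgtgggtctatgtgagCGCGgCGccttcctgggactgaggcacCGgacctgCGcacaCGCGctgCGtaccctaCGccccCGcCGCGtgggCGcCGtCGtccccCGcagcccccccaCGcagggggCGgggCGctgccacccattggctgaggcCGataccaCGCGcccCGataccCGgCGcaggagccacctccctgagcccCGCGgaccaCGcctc
They held 10 CG for VCX, 11 for PAGE2B and 17 for CRIP1, against 15 for MAGEB2 and 28 for DAZL. CG reads the same on both strands, and 93.9% of the 35116 windows of this length in the table held at least 1. Over the 27305 genes of the table the median was 12 CG. Of the 468 raised genes 370 had a window, under 80%, so no count of CG was compared over them. The methylation of these sites was not measured in these arrays.

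Not all genes far below 0 were cancer-testis genes. CRIP1, a LIM domain protein named for the intestine, had the smallest interaction p of the named genes (4.19e-05, limma adjusted p = 0.574, or 0.0593 in the blocked fit). It read 5.99 and 6.04 with SRCAP siRNA and 5-Aza-CdR, 5.58 and 5.75 with SRCAP siRNA and PBS, 8.10 and 8.53 with NC siRNA and 5-Aza-CdR, and 5.68 and 5.79 with NC siRNA and PBS. After the drug the SRCAP siRNA arrays were close to the PBS arrays and the NC arrays well above them, an interaction of -2.23 ± 0.32. VAMP5, a vesicle SNARE protein, was detected on both NC 5-Aza-CdR arrays (7.02 and 7.98) and on no other, where SRCAP siRNA arrays read 4.92 and 5.05 after the drug. Its level after the drug was at least 3.87-fold lower with SRCAP siRNA, and its interaction was -2.45 ± 0.42 (-0.74 in the authors' table). It passed the filter only through the group where it was high. TCEAL7 and GAMT, an enzyme of creatine synthesis, were likewise detected and kept only through NC siRNA with 5-Aza-CdR, at least 3.35-fold and at least 1.83-fold lower with SRCAP siRNA. CLIP3, a cytoplasmic linker protein, stood at -1.95 ± 0.33 and ADAP2, an Arf GTPase-activating protein, at -1.81 ± 0.33.

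Germ cell genes outside the X families varied more. Of 43 measured meiosis, germ cell and piRNA genes 28 were below 0 on both slides and 3 above (median -0.31), and of the 22 that the drug raised on average 16 were below and 1 above (median -0.49). GTSF1, a piRNA pathway protein, read 6.77 and 6.49 with SRCAP siRNA and 8.56 and 8.70 with NC siRNA after the drug, with an interaction of -1.99 ± 0.36. TEX101, a germ cell surface protein, stood at -1.53 ± 0.34. SOHLH1, a transcription factor of germ cells that is not in that list, stood at -2.17 ± 0.35 (-0.70 under the alternative nearest 0). MAEL, another piRNA pathway gene, was raised by 4.96 with SRCAP siRNA and 4.83 with NC siRNA and stood at 0.13. In the list of imprinted genes, 4 of 28 were raised, 3 of them below 0 on both slides: SGCE, epsilon-sarcoglycan, at -1.25 ± 0.37, NNAT, neuronatin, at -1.38 ± 0.41, and NDN, necdin, at -1.04 ± 0.50. The list as a whole had a median of 0.07.

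The 5 methylation-silenced genes that the study followed and that were measured here were all raised by the drug with both siRNAs and all below 0 on both slides (median -0.80). The study chose them, some on these arrays, so their direction is not independent evidence. CDKN2A, the p16 and p14 cell cycle inhibitor gene, read 7.43 and 7.49 with SRCAP siRNA and 5-Aza-CdR, 4.63 and 4.67 with SRCAP siRNA and PBS, 7.91 and 8.36 with NC siRNA and 5-Aza-CdR, and 4.54 and 4.46 with NC siRNA and PBS. The drug arrays did not overlap between siRNAs, by a small margin on slide 1, and the interaction was -0.82 ± 0.32, with the same value from a second probe. CHFR, a mitotic checkpoint gene, read 8.18 and 8.43 with SRCAP siRNA against 9.04 and 9.08 with NC siRNA after the drug, and 6.83 and 6.85 against 6.99 and 6.58 under PBS, where it was detected. Its interaction was -0.80 ± 0.32, a rise of 2.77-fold with SRCAP siRNA and 4.84-fold with NC siRNA. EPM2AIP1 (-0.93 ± 0.31), SYCP3, a component of the meiotic chromosome axis (-0.75 ± 0.39), and CTCFL, the testis paralogue of CTCF (-0.64 ± 0.32), lay in the same range. MYOD1 was detected on no array (4.56 to 4.79). The constitutively expressed genes HSPA5, an endoplasmic reticulum chaperone, LAMB3, a laminin chain, and G3BP1, a stress granule protein, stood at -0.03 ± 0.29, -0.27 ± 0.31 and 0.23 ± 0.36, and HSPA5 turned positive without any 1 of 4 arrays.

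Other genes had values above 0. PCDH7, a protocadherin, read 6.05 and 5.72 with SRCAP siRNA and 5-Aza-CdR, 4.62 and 4.56 with SRCAP siRNA and PBS, 4.82 and 4.61 with NC siRNA and 5-Aza-CdR, and 4.69 and 4.81 with NC siRNA and PBS. It was detected on the SRCAP siRNA 5-Aza-CdR arrays alone and was not called raised on average, and its interaction was 1.33 ± 0.31 (0.32 in the authors' table). TMEM154, a membrane protein, was detected on the same 2 arrays alone (1.04 ± 0.29, and 1.23 ± 0.41 from a second probe). MME, the peptidase neprilysin, read 7.85 and 8.66 with SRCAP siRNA against 7.10 and 7.29 with NC siRNA after the drug and was detected on no PBS array, an interaction of 1.20 ± 0.41. VIM, the intermediate filament vimentin, was detected in every group and read 14.89 and 15.02 with SRCAP siRNA and 5-Aza-CdR, 10.48 and 11.13 with SRCAP siRNA and PBS, 14.58 and 14.44 with NC siRNA and 5-Aza-CdR, and 11 and 11.36 with NC siRNA and PBS. It rose 17.7-fold with SRCAP siRNA and 10.1-fold with NC siRNA (interaction 0.82 ± 0.37, and 0.90 ± 0.37 from a second probe). The 7 raised fibroblast and contractile genes had a median of 0.18, with 3 above and 1 below 0 on both slides.

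Raised targets of p53 lay mostly above 0. Of 54 measured targets 23 were above 0 on both slides and 8 below (median 0.17). All represented genes gave 30.2% above and 25.7% below. Of the 18 targets that the drug raised on average 12 were above and 1 below (median 0.36). The 185 raised probes of any kind detected on all 4 PBS arrays had a median of 0.04, with 64 above and 53 below. Of the targets named here, ANKRA2, DDB2, CDKN1A, MDM2 and GDF15 were detected on all 4 PBS arrays and PLK2 on 0. The part of detection in the p53 values was not tested. PLK2, a polo-like kinase, stood at 0.89 ± 0.46, ANKRA2, an ankyrin repeat protein, at 0.61 ± 0.31, DDB2, a DNA damage sensor, at 0.55, CDKN1A, the p21 cell cycle inhibitor, at 0.39 and MDM2, the ubiquitin ligase of p53, at 0.29. GDF15, a secreted stress factor, was the raised target below 0 on both slides, at -0.36. The raised genes of MHC class I antigen presentation had a median of 0.30 over 4 genes, with 3 above and 0 below 0 on both slides, and the 6 raised interferon-stimulated genes one of 0.15. None of the 54 representative p53 target probes reached an unadjusted p under 0.05 in limma, with 1 probe per gene.

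Metallothioneins, cysteine-rich proteins that bind zinc and copper, had a list median under -0.5 although the drug raised none of them on average. Of 9 measured genes of the list, which also held the regulator MTF1 and the zinc exporter SLC30A1, 7 were below 0 on both slides and 2 above (median -0.79). Without NC PBS replicate 1 the median was -0.26, without SRCAP siRNA PBS replicate 2 -0.41, without SRCAP siRNA 5-Aza-CdR replicate 1 -0.46 and without NC 5-Aza-CdR replicate 2 -0.52. MT1E read 13.99 and 14.52 with SRCAP siRNA and 5-Aza-CdR, 14.81 and 15.25 with SRCAP siRNA and PBS, 15.12 and 15.38 with NC siRNA and 5-Aza-CdR, and 14.97 and 15.42 with NC siRNA and PBS. The SRCAP siRNA 5-Aza-CdR arrays were the lowest of the 8, giving -0.82 ± 0.39, while a second MT1E probe gave 0.03. MT1G stood at -1.12 ± 0.67 (-1.83 to -0.40 without any 1 array) and MT2A at -0.58 ± 0.34, and none of the 9 reached an unadjusted p under 0.05.

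Clustered histone genes had a median of -0.21, with 19 of 35 below 0 on both slides and 9 above, H2A variant genes one of -0.23 over 8 genes and neuronal markers one of -0.21 over 10, against 0.03 for all genes. The 8 clustered histone genes that the drug raised on average had a median of 0.09, with 3 below and 4 above 0 on both slides. DNA replication and S phase genes had a median of 0.16, with 30 of 65 above 0 on both slides and 9 below, and G2 and M phase genes one of -0.16, with 30 of 83 below and 15 above, where leaving out SRCAP siRNA PBS replicate 1 or NC PBS replicate 2 turned the sign. The genes of the SRCAP and p400 remodelling complexes had a median of 0.19 over 26 genes, EP400 standing at -0.07, VPS72 at -0.15 and ACTR6 at 0.46. The genes for H2A.Z itself, H2AZ1 and H2AZ2, stood at 0.00 and -0.01. Interferon-stimulated genes had 15 of 52 below and 15 above 0 on both slides (median 0.09), unfolded protein response genes a median of 0.04 and housekeeping genes one of 0.11. Markers of blood cells, which a culture of RKO cells should not hold, included 9 raised genes of 17 measured, with 5 below and 2 above 0 on both slides. In every one of the 29 lists 0 genes were called for the interaction.

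**Figure D5:**
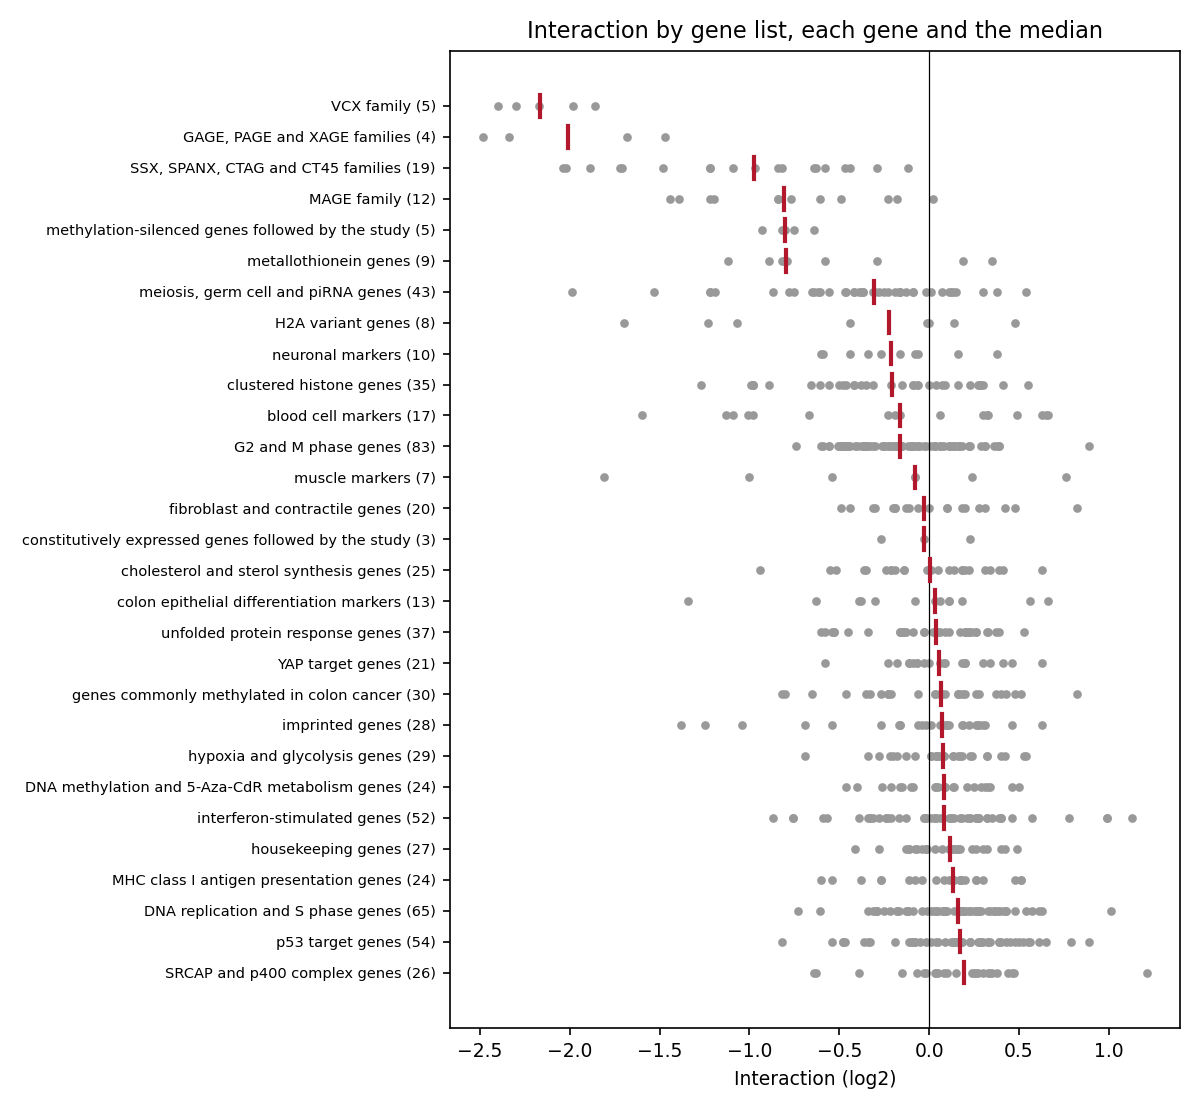
Interaction (log2, x axis) of every measured gene of the 29 lists (rows, with the number of genes), 1 grey point per gene and a red bar at the median. The lists of VCX, GAGE with PAGE and XAGE (only PAGE genes measured), SSX with SPANX, CTAG and CT45, and MAGE genes have medians of -2.17, -2.01, -0.97 and -0.81, and the p53 targets lie mostly above 0.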

How the data were processed

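Total RNA of 8 samples was hybridised to Illumina HumanWG-6 v3 arrays. Intensity was deposited as a mean over beads for each probe, linear in scale. The submitters' processing notes name BeadStudio 3.0.1. Detection p-values, also deposited, set each probe against the negative control beads of its array. A deposited log2 table made by the authors with robust spline normalization in lumi (version not given in the sources used here; column medians 7.439 to 7.449) compresses low signals and served as an alternative.

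Signals were corrected and quantile normalized with neqc (offset 16). Of 48801 probes (2 IDs that occurred on several lines were left out), those detected (p under 0.01) on 2 or more arrays were kept. Gene names came from GEO's platform annotation, updated through a RefSeq gene table. All 8 arrays were fitted with 1 coefficient per group in limma 3.58.1 (R 4.3.3), with eBayes, two-sided tests and Benjamini-Hochberg adjustment over all probes kept at 0.05, and the fit was tested on simulated data. Values with ± are log2 differences and their SE. Folds against a group in which a probe was not detected on any array are lower bounds, taken against the lowest signal of a detected probe. Slides were read from the chip number in the labels. As same-numbered arrays share a slide, the slide was fitted as a block in an alternative (deviations of same-numbered arrays correlated at r = 0.003 to 0.711). The number of arrays limits the precision.

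Named genes were SRCAP and genes followed by the study, the 12 smallest interaction p in each direction with 1 sign on both slides, the 15 largest average drug increases and 5 largest decreases, and up to 3 genes with the smallest p of each of 29 lists; other list members named were chosen after their values were seen. Members and lists were chosen with earlier results of these data known. Promoter sequences are from RefSeq.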

Additional observations from a re-analysis of the deposited data

Results flagged for a closer look

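Of the 122 named genes, 19 had drug effects of opposite sign with the 2 siRNAs on both slides, 13 of them higher after 5-Aza-CdR with SRCAP siRNA and 6 lower. In limma the interaction of none was called (adjusted p = 0.999 for each, 0.338 to 0.977 with the slide block). Many were named because their interaction was among the largest, so opposite signs were favoured by that choice. Higher with SRCAP siRNA and lower with NC siRNA were GPRACR (interaction 1.30), ANP32E, a chaperone that removes H2A.Z from nucleosomes (1.21), B3GNT6 (1.13), OIT3 (1.13), MTMR8 (1.07), DTX3L, a ubiquitin ligase (0.99), LCE1E (0.92) and TIMM17A, a mitochondrial import protein (0.90). The same held with smaller values for INSIG1, a regulator of sterol synthesis (0.63), MXI1, a MAX-binding repressor (0.54), RAB7A, a late endosome GTPase (0.49), PGK1, a glycolytic enzyme (0.40), and G3BP1 (0.23). Other probes of INSIG1 (interaction -0.03), MXI1 (-0.02 and 0.11) and G3BP1 (0.30) had drug effects of 1 sign with both siRNAs. Several of the genes with larger values lay near background. After the drug B3GNT6 and LCE1E were detected on 0 arrays with either siRNA. ANP32E, OIT3 and MTMR8 were detected on 1 array with SRCAP siRNA and 0 with NC siRNA. Their signal after the drug was thus at or near the detection limit.

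The drug effect of GPRACR was 1.09 and 0.61 with SRCAP siRNA and -0.16 and -0.74 with NC siRNA on slides 1 and 2. That of ANP32E was 0.23 and 0.65 with SRCAP siRNA and -1.34 and -0.21 with NC siRNA. ANP32E was detected on 1 NC PBS array, and these arrays read 6.43 on slide 1 and 5.17 on slide 2.

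Lower with SRCAP siRNA and higher with NC siRNA were MT1G (interaction -1.12), ANKRD37 (-0.69), HYOU1, a chaperone of the endoplasmic reticulum (-0.45), RPS18, a ribosomal protein (-0.41), NME2, a nucleoside diphosphate kinase (-0.40), and ENO2, an enolase (-0.34). Of 3 further NME2 probes 1 had opposite signs (-1.41), and the others stood at -0.67 and 0.00. MT1G gave -0.53 and -1.06 with SRCAP siRNA and 0.63 and 0.02 with NC siRNA.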

How the results depend on the processing

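The interaction called 0 probes under every alternative run, with the replicate block included, while probes at an unadjusted p under 0.05 numbered 146 to 1927. The median interaction of the raised probes, -0.316, was -0.262 with the replicate block (the slide), -0.124 in the authors' normalized table, -0.188 without background correction, -0.239 at an offset of 50, -0.412 without the quantile step, -0.374 on slide 1, -0.383 on slide 2 and -0.416 over probes with an average effect of at least 1. It was -0.219 with detection on all 4 5-Aza-CdR arrays and 0.037 with detection on all 8, where probes silent under PBS cannot enter. Without any 1 array it was -0.521 to -0.317. The share of raised probes below 0 on both slides, 54.7%, was 48.4% with detection on all 4 5-Aza-CdR arrays and 32.1% on all 8. The probes raised on average, 689, numbered 437 in the authors' normalized table and 134 with detection on all 8 arrays. Those lower with SRCAP siRNA after the drug, 59, numbered 0 in the authors' table, 0 without background correction, 34 at an offset of 50, 5 without a filter, 25 with detection on all 4 5-Aza-CdR arrays and 1 on all 8. None of the 48 named genes with an interaction of size 1 or more turned its sign under an alternative, but sizes moved: the value nearest 0 was -0.739 for VAMP5, -0.73 for TCEAL7, -0.657 for COX7B2, -0.701 for SOHLH1, -0.974 for CRIP1, 0.317 for PCDH7, 0.3 for GPRACR, -1.811 for PAGE2B and -1.87 for VCX3B, against -2.446, -2.35, -2.067, -2.173, -2.226, 1.329, 1.304, -2.476 and -2.403 as reported. Of all 122 genes, 7 turned at least once (ANK2, DAZL, HCLS1, HDAC4, HSPA5, MAGEB2 and SRCAP). Of the 29 lists, 14 had a median of the other sign at least once. With 2 arrays a group, the median SE of 0.364 limits what the test can call, and for probes not detected under PBS the PBS level is background.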
